A study of Rattus norvegicus with 8 samples.

Results

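The collagen genes of rat epitrochlearis muscle were measured in 8 animals, as the genes whose only symbol in the array annotation was Col, digits, a and digits. There were 41 such genes, read by 58 of 31042 tested probe sets, out of 14217 genes with 1 symbol. They comprised 11 fibrillar genes, 5 genes of basement membrane type IV, 5 of type VI and 20 others. Where a gene had several probe sets, the one with the highest level on average stood for it. A probe set is a group of short probes that together read 1 transcript.

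The series asked whether whey protein hydrolysate, milk whey cut by enzymes into peptides, alters muscle gene expression after exercise compared with an amino acid mixture. The epitrochlearis is a small forelimb muscle made mostly of fast-twitch fibres. All 8 animals were male Sprague-Dawley rats aged 6 weeks that had practised swimming for 3 days, ate 5 g of restricted diet on the previous day and then swam for 2 h in water at 35 °C, 4 rats to a barrel. Directly afterwards, each rat received by gavage a 44 kJ meal worth about 15% of its daily energy. The meal held carbohydrate with the amino acid mixture in 4 rats (AAM) and carbohydrate with the hydrolysate in the other 4 (WPH). Every rat swam and was fed, so neither swimming nor feeding itself was contrasted. The time of sampling after the meal, the barrel and the array batch of each rat are unknown here, and any such difference between the groups cannot be told apart from the meal.

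Collagens are triple helices of 3 alpha chains. Fibrillar collagens, chiefly types I and III with type V inside the fibrils, form the tension-bearing fibres of the endomysium, perimysium and epimysium, the sheaths around muscle fibres, fascicles and the whole muscle. Type IV collagen forms the sheet-like network of basement membranes around muscle fibres and capillaries. Type VI collagen makes beaded filaments that tie the basement membrane to the interstitial matrix, and its loss causes muscular dystrophy. In muscle, fibroblasts are the main source of the interstitial chains.

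The tissue label was checked against marker genes. All 10 measured fast fibre markers lay above the array median of 6.66, and so did 8 of 9 fibroblast and all 7 endothelium markers measured. Of the cartilage and bone markers, 1 of 6 was above it, of the adipocyte markers 0 of 4, and of the skin and epithelium markers 2 of 6. Most markers of the remaining lists were also above it: 7 of 7 for slow fibre, 5 of 5 for macrophage and 6 of 7 for smooth muscle and pericyte. Tendon had 4 of 5, Schwann cell 3 of 4 and satellite cell 1 of 1. These counts therefore do not tell fibre types apart. Among the collagens, 26 of 41 genes were above the array median, a share close to that of all genes, 9374 of 14217.

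Differences between arrays in the deposited values were far smaller than those of an ordinary log2 scale. Typical probe sets varied over the arrays with an SD of 3.69e-06 (median), so a deposited difference is not a fold change. For that reason, each array's value is given as its deviation from the gene's mean over the 8 arrays, in units of the gene's SD over those arrays. The size of a difference between meals is given as the standardized difference, the WPH mean minus the AAM mean in units of the pooled SD of both groups, with a 95% interval (n = 4 per group). A level depends on the probes as well as on the transcript; it served only to choose a gene's probe set and to tell dim probe sets, those at or below the array median, from the rest.

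Upstream sequence was taken from RefSeq (GRCr8) for the 32 of 41 collagen genes with an entry. The 250 bases before each gene's first listed start were searched on both strands for 4 motifs. These were the CCAAT box, the TATA box spelled TATAAA, the GC box spelled GGGCGG, and CAGAC, letters known from Smad binding sites. The windows shown belong to Col1a2 and Col5a2, fibrillar chains that varied together over the arrays, and to Col4a1 and Col4a2, partner chains that followed another order. Capitals mark the matched letters, as written or in reverse complement.
Col1a2, chr4:33518307-33518406, plus strand, 100 bases from base -250: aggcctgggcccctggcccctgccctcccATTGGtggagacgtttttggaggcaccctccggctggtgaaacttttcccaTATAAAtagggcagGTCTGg
Col5a2, chr9:55090202-55090301, minus strand, 100 bases from base -150: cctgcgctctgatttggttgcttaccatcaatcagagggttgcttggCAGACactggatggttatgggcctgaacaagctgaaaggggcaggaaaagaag
Col4a1 and Col4a2, chr16:84885521-84885596, plus strand, the bases between both starts: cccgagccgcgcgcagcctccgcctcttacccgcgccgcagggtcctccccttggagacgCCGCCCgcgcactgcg

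The Col1a2 stretch held CCAAT in reverse complement, TATAAA as written and CAGAC in reverse complement. Col5a2 held CAGAC as written. Col4a1 and Col4a2 face away from each other, and their listed starts are 76 bases apart, so the same bases lie upstream of both; they hold 1 GGGCGG in reverse complement. GGGCGG occurred in 18 of 32 collagen windows (56.2%), against 32.4% of all 27457 windows. CCAAT was in 28.1% of the collagen windows and 34.3% of all, TATAAA in 12.5% and 13.1%, and CAGAC in 34.4% and 42.8%. These are letter matches in a fixed window and were not compared by a test.

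No collagen differed between the meals past the threshold. Of the 58 collagen probe sets, 0 had an adjusted p below 0.05 by limma with Benjamini-Hochberg adjustment over all probe sets, as was true of 0% of the 31042 tested. An unadjusted p below 0.05 occurred in 2 collagen probe sets, those of Col7a1 and Col22a1, against 3.58% of all probe sets. In 0 collagen probe sets did the 4 arrays of one meal lie apart from the 4 of the other, against 2.23% of all. The smallest adjusted p of a collagen was 1 and of any probe set 0.525.

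By direction alone, 30 of 41 collagen genes were higher and 11 lower after WPH, with a median standardized difference of 0.29. Over all 14217 genes, 46.1% were higher and the median was -0.06. That count depended on the arrays kept: 17 of 41 collagens were higher without WPH replicate 4, but 28 without both WPH replicate 4 and AAM replicate 3. It also turned with the centring of the arrays: after each array's median was subtracted, 15 collagens were higher and 26 lower, while 11.2% of all genes were then higher. Of 17 named collagens (14 main chains and the 3 others of largest SD), Col1a1, Col4a1, Col4a2 and Col12a1 turned direction after quantile normalization. Among the 26 collagens above the array median, 23 were higher after WPH as deposited, against 48% of all genes above it. That smaller set was not counted again without WPH replicate 4.

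**Figure D1:**
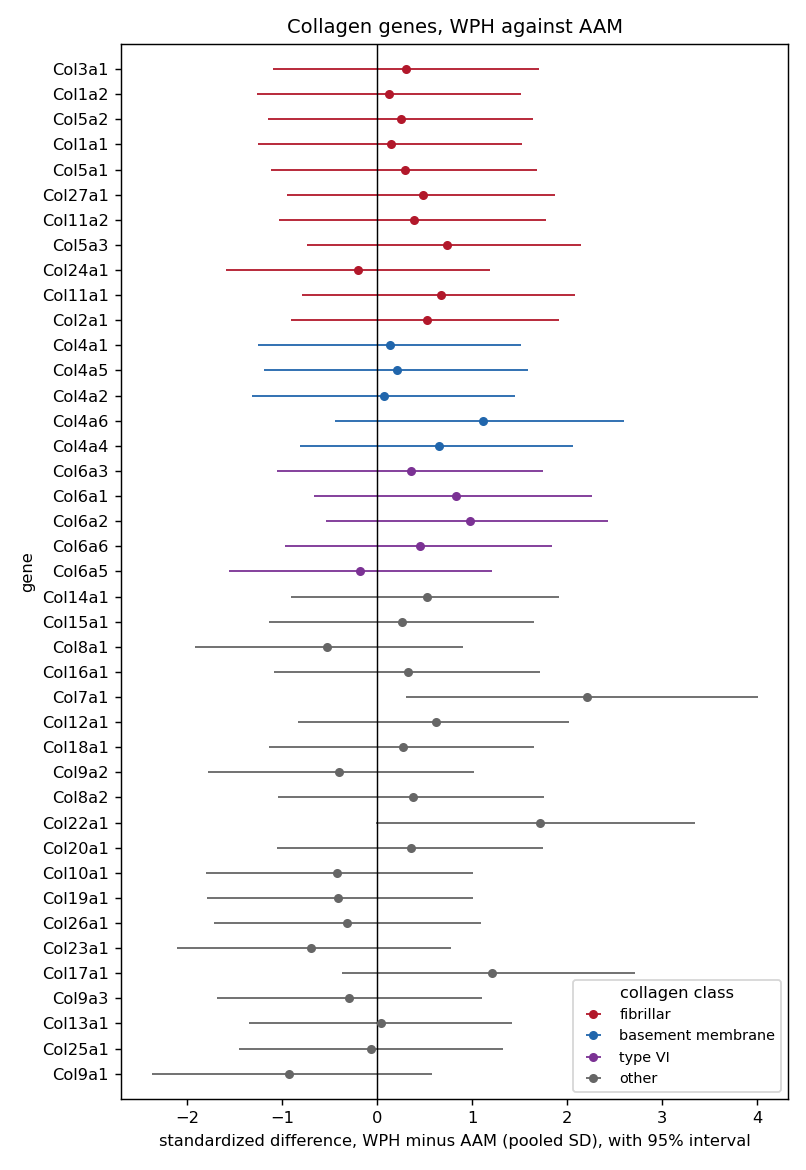
Standardized difference (WPH minus AAM, in pooled SD, horizontal axis) of the 41 collagen genes, coloured by class, with 95% intervals as bars (n = 4 per group). All intervals but that of Col7a1 (0.31 to 4.01) reach across 0.

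Type I collagen, the main fibre-forming collagen of muscle sheaths and tendon, is built from the chains of Col1a1 and Col1a2. Col1a1 deviated by -0.49, -0.39, 1.07 and -0.51 SD in AAM replicates 1 to 4 and by -0.57, -1.38, 0.69 and 1.58 SD in WPH replicates 1 to 4. Col1a2 deviated by -0.07, -0.70, 0.87 and -0.39 SD in the AAM arrays and by -0.44, -1.60, 0.87 and 1.44 SD in the WPH arrays. Both genes were high in AAM replicate 3 and WPH replicates 3 and 4 and lowest in WPH replicate 2, so the WPH arrays enclosed all AAM arrays. The standardized difference was 0.15 (95% interval -1.25 to 1.53) for Col1a1 and 0.13 (-1.26 to 1.51) for Col1a2. For Col1a1 the exact two-sided permutation p was 0.886. A further probe set of each gene followed the one shown, with r = 0.97 for Col1a1 and 0.91 for Col1a2 over the 8 arrays.

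Col3a1, the single chain of type III collagen, found in fine and newly laid fibres, varied in nearly the same order. Its deviations were 0.05, -0.48, 0.74 and -0.98 SD in the AAM arrays and -0.23, -1.51, 1.17 and 1.24 SD in the WPH arrays. The groups overlapped fully, with a standardized difference of 0.31 (95% interval -1.09 to 1.70). Its deposited values were almost flat, with an SD of 7.07e-06 over the 8 arrays at a mean level of 13.29, against an SD of 0.00161 for Col1a1. Since its spread is below the range of the array medians, 6.67e-05, its direction depended on the centring: after median centring the standardized difference was -0.40.

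Type V collagen, which sits inside type I fibrils and sets their diameter, is made from the chains of Col5a1, Col5a2 and Col5a3. Col5a1 deviated by -0.51, 0.17, 0.55 and -0.84 SD after AAM and by -0.46, -1.29, 0.46 and 1.91 SD after WPH. Col5a2 deviated by 0.13, -0.06, 0.52 and -1.12 SD after AAM and by -0.69, -1.31, 1.10 and 1.43 SD after WPH. WPH replicate 4 was again the highest array and WPH replicate 2 the lowest in both genes. Their standardized differences were 0.29 and 0.25. Col5a3, the less common chain, had its highest value in WPH replicate 3, 2.04 SD above its mean.

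The other fibrillar members were Col2a1 and Col11a2, chains known from cartilage, Col11a1, which also occurs in other tissues, and the minor chains Col24a1 and Col27a1. Col11a1 deviated by -1.57, 0.40, 0.66 and -0.84 SD after AAM and by 0.34, -0.96, 0.63 and 1.34 SD after WPH, a standardized difference of 0.67. Its mean level of 6.54 and that of Col2a1, 6.36, lay below the array median. Further probe sets of Col11a1 had standardized differences of 0.63 and -0.09. Probe sets of Col2a1 disagreed, with r between -0.18 and 0.37 against the one used. Over the class, 10 of 11 fibrillar genes were higher after WPH, with a median standardized difference of 0.31 that was 0.83 without WPH replicate 2, -0.10 without WPH replicate 4 and -0.03 after median centring. In 9 of 11 fibrillar genes (81.8%), WPH replicate 4 was the highest array, against 13.1% of all genes. The lowest array was WPH replicate 2 in 5 of 11, against 9.84% of all genes.

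**Figure D2:**
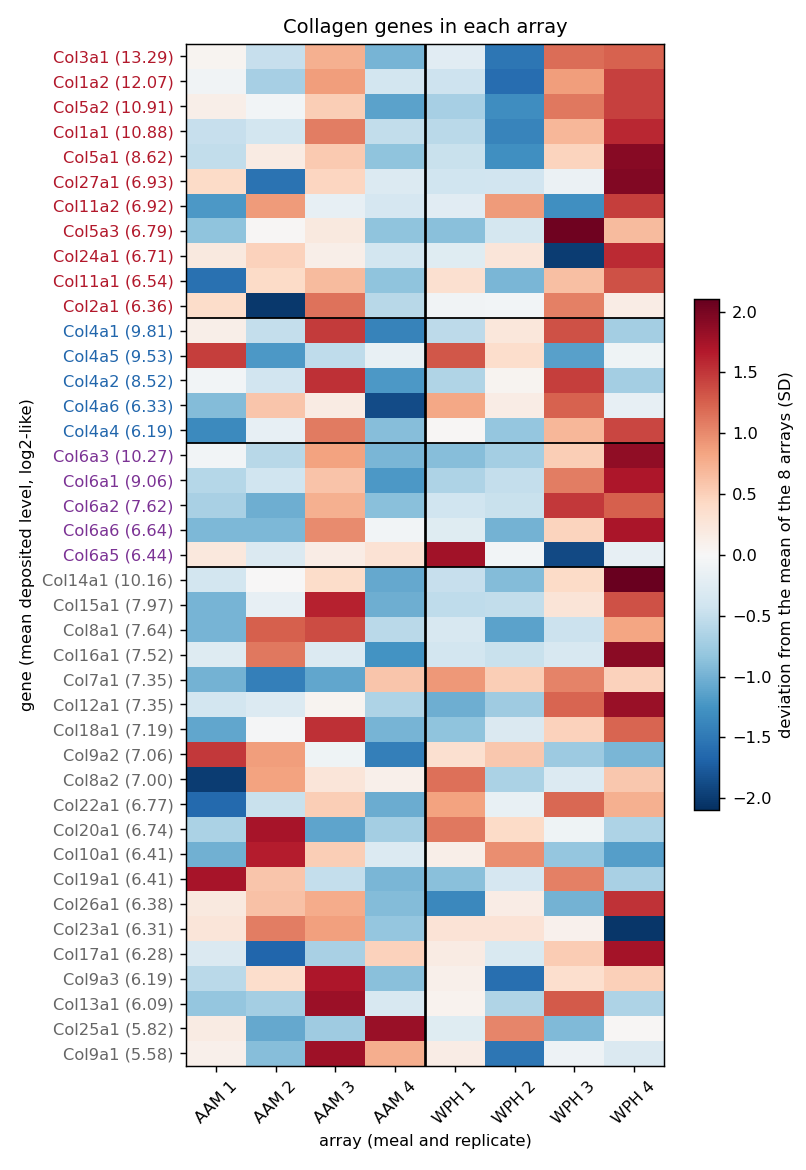
Deviation of each array (columns, replicates 1 to 4 of each meal) from the gene's mean over the 8 arrays, in SD, for the 41 collagen genes (rows, mean deposited level in brackets). Name colours give the class: red fibrillar, blue basement membrane, purple type VI, grey other. The first 5 red rows and the first 4 purple rows are high in AAM 3, WPH 3 and WPH 4, whereas Col4a1 and Col4a2 are below their means in WPH 4.

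Type VI collagen is assembled from the chains of Col6a1, Col6a2 and Col6a3. Col6a1 deviated by -0.60, -0.42, 0.60 and -1.20 SD after AAM and by -0.64, -0.50, 1.07 and 1.69 SD after WPH. Col6a2 deviated by -0.68, -1.03, 0.74 and -0.87 SD after AAM and by -0.42, -0.47, 1.48 and 1.25 SD after WPH. Col6a3 deviated by -0.06, -0.59, 0.84 and -0.96 SD after AAM and by -0.89, -0.71, 0.51 and 1.86 SD after WPH. In each of the 3 chains the values split the rats the same way, with AAM replicate 3 and WPH replicates 3 and 4 above the mean and the other 5 arrays below it. This holds for the probe sets used; a further probe set of Col6a3 (r = 0.39 with the one used) was lowest in WPH replicate 3, at -1.49 SD, and one of Col6a2 (r = 0.65) had AAM replicate 4 at 0.11 SD.

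The WPH mean was 0.40 ± 1.16 SD for Col6a1 against -0.40 ± 0.75 for AAM (SD, n = 4 each), a standardized difference of 0.83 (95% interval -0.66 to 2.26). It was 0.98 (-0.54 to 2.43) for Col6a2 and 0.36 for Col6a3. Unlike those of Col1a1, Col1a2, Col5a1 and Col5a2, the differences of Col6a1 and Col6a2 kept their direction when each array was left out in turn. So did those of Col7a1, Col11a1 and Col12a1, in the probe sets used. For Col6a1 and Col6a2 the ranges were 0.46 to 1.26 and 0.65 to 1.61. Neither passed the threshold in any of these fits. Quantile normalization left 0.02 for Col6a2, 0.17 for the class median, which was 0.45 as deposited, and no spread at all for Col6a1. Col6a6, an alternative to the Col6a3 chain with a mean level of 6.64, deviated by -0.94, -0.95, 0.99 and -0.06 SD after AAM and by -0.26, -0.99, 0.47 and 1.72 SD after WPH. Its standardized difference was 0.45, and that of Col6a5, a related chain also below the array median, was -0.18.

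Among basement membrane chains, Col4a1 and Col4a2, which encode the chains of the common type IV trimer, followed another order. Col4a1 deviated by 0.12, -0.50, 1.47 and -1.40 SD after AAM and by -0.55, 0.24, 1.33 and -0.71 SD after WPH. Col4a2 deviated by -0.06, -0.41, 1.53 and -1.21 SD after AAM and by -0.63, 0.06, 1.45 and -0.72 SD after WPH. Both were high in AAM replicate 3 and WPH replicate 3 and lowest in AAM replicate 4, while WPH replicate 4, the array in which most fibrillar chains peaked, was below their means. The standardized differences were 0.14 and 0.07, each far inside the spread between replicates.

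Col4a5, a type IV chain of specialised and smooth muscle basement membranes, was highest in AAM replicate 1 and WPH replicate 1, at 1.45 and 1.30 SD, and so kept to neither order. Col4a4, a chain known from kidney basement membranes, was highest in WPH replicate 4 (1.41 SD), AAM replicate 3 (1.09 SD) and WPH replicate 3 (0.70 SD), as many fibrillar chains were. Col4a4 and Col4a6 were below the array median, and the probe sets of Col4a6 ran opposite to each other (r = -0.76). Over the class, 5 of 5 genes were higher after WPH with a median standardized difference of 0.21, which was -0.36 after quantile normalization and -0.11 after median centring. In 3 of 5, AAM replicate 4 was the lowest array, against 12.9% of all genes.

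Partner chains of 1 trimer could be compared over the arrays for 10 of the 11 pairs listed. The r, over 8 arrays that all genes share, was tested with an exact two-sided permutation p adjusted over the 10 pairs. Col4a1 and Col4a2, neighbours on chromosome 16 with the shared upstream bases printed above, gave r = 0.99 (exact adjusted p = 2.48e-04) and rho = 1.0 (exact adjusted p = 4.96e-04). Without the 2 arrays farthest from the median of Col4a1, r was 0.99 (exact adjusted p = 0.0139). As deviations from the group means, it was again 0.99 (exact adjusted p = 0.0174).

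Interstitial partner chains were also close. Col1a1 and Col1a2 gave r = 0.97 (exact adjusted p = 0.00298) and rho = 0.83 (exact adjusted p = 0.0384). Col5a1 and Col5a2 gave r = 0.91 (exact adjusted p = 0.00298) and rho = 0.90 (exact adjusted p = 0.0152). Type VI pairs gave r = 0.93 for Col6a1 with Col6a2, 0.94 for Col6a1 with Col6a3 and 0.84 for Col6a2 with Col6a3, with exact adjusted p of 0.00759, 0.00521 and 0.0188. Their rho was 0.67, 0.90 and 0.64, with exact adjusted p of 0.137, 0.0152 and 0.137. Without the 2 farthest arrays, these 5 pairs had r of 0.95, 0.85, 0.85, 0.89 and 0.81 in the same order, with exact adjusted p between 0.111 and 0.164. They no longer passed the threshold over the 6 arrays left, while r kept its sign.

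The other 4 pairs did not pass. Col8a1 and Col8a2, network-forming chains of vessels, gave r = 0.61 (exact adjusted p = 0.147), and the cartilage pair Col11a1 and Col11a2 gave 0.37 (exact adjusted p = 0.449). Col9a1 with Col9a2 and Col4a5 with Col4a6 gave -0.33 and -0.30 (exact adjusted p = 0.472 each). Each of those 4 pairs except Col8a1 and Col8a2 holds at least 1 gene below the array median. Among collagens that lie side by side on a chromosome but are no trimer partners, Col3a1 and Col5a2 had r = 0.96 and Col6a5 and Col6a6 -0.20, given without a test.

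**Figure D3:**
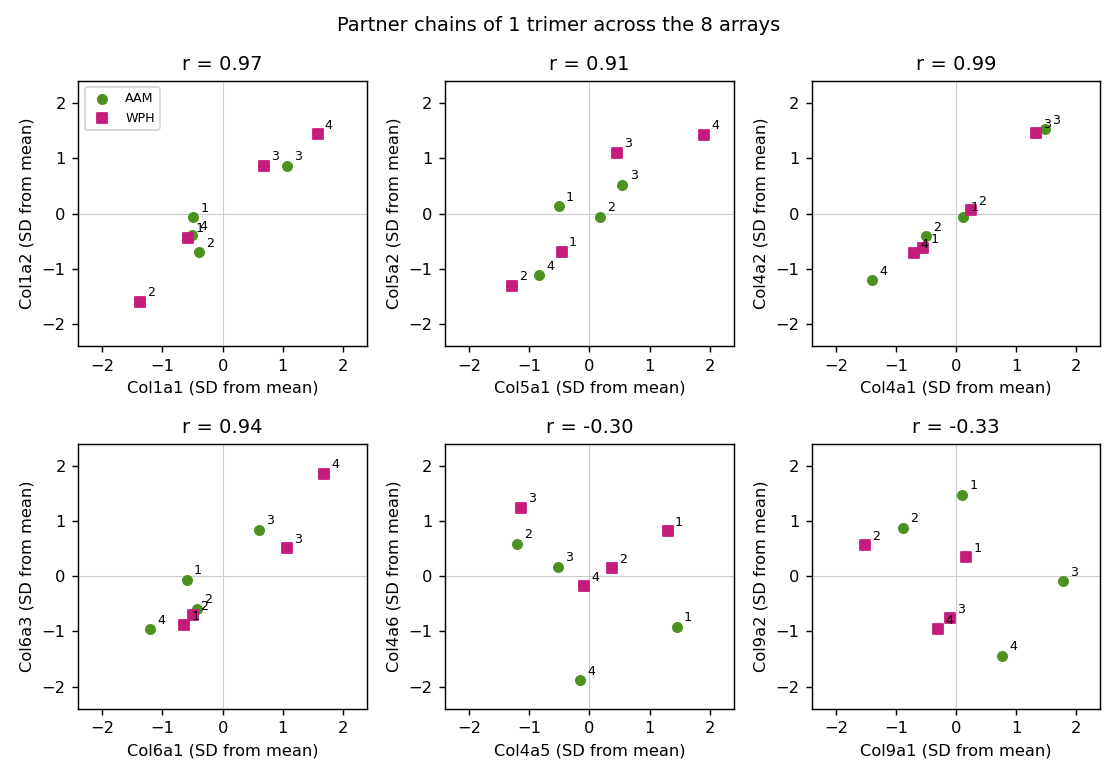
Deviations (SD from the gene's mean over the 8 arrays) of 6 pairs of chains, 1 point per array with its replicate number, green circles AAM and magenta squares WPH. Points of Col1, Col5, Col4a1/Col4a2 and Col6 pairs lie along a rising line, with r from 0.91 to 0.99. Those of Col4a5/Col4a6 and Col9a1/Col9a2 do not.

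The median r over all pairs of genes in a class describes how closely the classes kept together. It was 0.60 over the 55 fibrillar pairs, 0.82 over the 10 type VI pairs, 0.38 over the 10 basement membrane pairs and 0.05 over the 190 pairs of other collagens. Over all genes it was 0.00. Pairs with r above 0 made up 85.5% of the fibrillar, 60% of the type VI and 60% of the basement membrane pairs, against 49.9% over all genes. The lowest type VI pair had r = -0.54, so the type VI median does not hold for every chain. Without AAM replicate 3 and WPH replicate 4, the fibrillar median fell to 0.36 and the type VI median to 0.43. The basement membrane median rose to 0.51 and that of the other collagens to 0.15. With AAM replicate 3 alone left out, the basement membrane median was 0.16. Among 9 interstitial chains (Col1a1, Col1a2, Col3a1, Col5a1, Col5a2, Col6a1, Col6a2, Col6a3 and Col14a1), a set put together after their values were seen, the median was 0.90 and the range 0.74 to 0.98. Leaving out the same 2 arrays gave 0.81 for this set. After median centring these 9 genes had a median r of 0.85, but the median over 1422 genes spread over the array then went from 0.00 to 0.80, since the subtracted medians are larger than the spread of most probe sets.

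Of the remaining collagens, Col14a1, a collagen on the surface of fibrils, deviated by -0.39, 0.00, 0.39 and -1.08 SD after AAM and by -0.48, -0.91, 0.40 and 2.07 SD after WPH. Col12a1, its relative in tendon and muscle fascia, deviated by -0.38, -0.28, 0.05 and -0.65 SD after AAM and by -1.02, -0.75, 1.22 and 1.81 SD after WPH. Both peaked in WPH replicate 4, with standardized differences of 0.53 and 0.62. A further probe set of Col14a1 (r = 0.87 with the one used) had -0.08. The other probe sets of Col12a1 did not follow the one used closely (r from -0.24 to 0.48). Of the other collagens of the fibril-associated kind, Col16a1 was also highest in WPH replicate 4, at 1.89 SD. Col9a2 and Col19a1 were highest in AAM replicate 1, at 1.48 and 1.73 SD. Col20a1 was highest in AAM replicate 2, at 1.73 SD, and Col9a1 in AAM replicate 3, at 1.78 SD. In WPH replicate 4, Col9a1, Col9a2, Col19a1 and Col20a1 lay below their means, between -0.96 and -0.30 SD. Col9a3 and Col22a1 lay above theirs in that array, at 0.50 and 0.74 SD.

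Col15a1 and Col18a1 encode collagens of basement membrane zones that carry heparan or chondroitin sulphate chains. Col15a1 deviated by -0.97, -0.18, 1.61 and -1.03 SD after AAM and by -0.53, -0.51, 0.27 and 1.33 SD after WPH. Col18a1 deviated by -1.09, -0.03, 1.53 and -0.97 SD after AAM and by -0.84, -0.31, 0.48 and 1.23 SD after WPH. Each was highest in AAM replicate 3, as Col4a1 was, but was also high in WPH replicate 4, as the fibrillar chains were. The standardized differences were 0.26 and 0.27. A further probe set of Col18a1 (r = 0.75 with the one used) had -0.24. It was highest in WPH replicate 4, at 1.52 SD, with AAM replicate 3 at 1.16 SD.

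Col7a1, which forms the anchoring fibrils that hold epithelial basement membranes to the stroma, had the largest standardized difference of the collagens, 2.21 (95% interval 0.31 to 4.01). It deviated by -1.0, -1.44, -1.09 and 0.58 SD after AAM and by 0.91, 0.51, 1.04 and 0.48 SD after WPH. AAM replicates 1 to 3 lay low, but AAM replicate 4 lay among the WPH arrays. limma gave an unadjusted p of 0.0151 and an adjusted p of 1, and the exact permutation p was 0.0857. Leaving out AAM replicate 4 raised the standardized difference to 7.27, with an adjusted p of 0.733 by limma. The gene was read by 1 probe set at a mean level of 7.35. Of the skin and epithelium markers, 2 of 6 were above the array median and 1 of 6 was higher after WPH, with a median standardized difference of -0.51. Their part in the value of Col7a1 was not tested.

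Col22a1, a collagen of the junction between muscle and tendon, is named because it was the other collagen with an unadjusted p below 0.05, and so was chosen after its values were seen. It deviated by -1.63, -0.47, 0.52 and -1.05 SD after AAM and by 0.85, -0.15, 1.20 and 0.74 SD after WPH, with AAM replicate 3 inside the WPH range. Its standardized difference was 1.72 (95% interval -0.01 to 3.35), with an unadjusted p of 0.0418 by limma and an exact permutation p of 0.0571. The mean level was 6.77, close to the array median. As for Col3a1, the direction depends on the centring. The deposited difference of Col22a1, 7.21e-06, is below that of the array medians (WPH minus AAM), 1.17e-05, so subtracting the medians turns it. Tendon markers, 5 measured of 7, were all higher after WPH with a median standardized difference of 0.72. Their mean deviation was lowest in AAM replicate 1, at -1.76 SD, the array in which Col22a1 was lowest. Their part in the value of Col22a1 was not tested.

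Over the other 20 collagens together, 11 were higher and 9 lower after WPH, with a median standardized difference of 0.15 that became -0.52 after median centring. The lowest values were -0.93 for Col9a1, a cartilage chain, and -0.69 for Col23a1, a transmembrane collagen, both below the array median. Col17a1, the hemidesmosomal collagen, had 1.21 and was also below the array median. The 15 collagens at or below the array median had a median r of -0.01 among themselves and were higher after WPH in 7 cases.

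Genes that build and surround collagen were read from lists, with the values as deposited only. Some positive differences, such as 6.28e-06 for P4ha2, are below that of the array medians (WPH minus AAM), 1.17e-05, so median centring turns them. Others, such as 6.79e-05 for Bgn, are larger. The directions and counts of the lists were not read again after median centring. The 22 measured enzymes and chaperones of collagen assembly held 16 higher and 6 lower after WPH, 0 past the threshold and a median standardized difference of 0.18. Smallest in p were P4ha2 and P4ha1, catalytic subunits of the prolyl hydroxylase that makes the triple helix stable, at 1.01 and 0.91 (exact permutation p = 0.2 and 0.257). Of 15 measured interstitial partners, 12 were higher and 3 lower, with a median of 0.37, 0 past the threshold, and Bgn and Thbs4 at 1.23 and 0.96. Bgn is a small proteoglycan of fibrils, and Thbs4 a matrix protein of tendon and muscle.

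As a mean over the 15 interstitial partners, the deviation was -0.69, 0.30, 0.39 and -0.68 SD in the AAM arrays and -0.21, -0.78, 0.47 and 1.20 SD in the WPH arrays. WPH replicate 4 was therefore highest and WPH replicate 2 lowest here too. Of the 10 basement membrane partners (laminin chains, nidogens, perlecan and agrin), 6 were higher and 4 lower, with a median of 0.42, 0 past the threshold, and Lamb2 and Hspg2 at 0.94 and 0.62. Their mean deviation was highest in AAM replicate 3, at 0.94 SD, and lowest in AAM replicate 4, at -0.99 SD, the arrays in which Col4a1 was highest and lowest. In WPH replicate 4, however, it was 0.54 SD, whereas Col4a1 and Col4a2 lay at -0.71 and -0.72 SD.

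Breakdown was read from 16 measured proteases and inhibitors, of which 9 were higher and 7 lower after WPH, with a median of 0.15 and 0 past the threshold. Mmp3 (stromelysin-1) was at -1.61 and Fap, a fibroblast protease, at 1.39 (exact permutation p = 0.0857 and 0.114). Collagen receptors numbered 5 measured of 9, with 4 higher, 1 lower, a median of 0.63 and 0 past the threshold. Itgb1, the shared beta chain of the collagen-binding integrins, was at 1.13 and Itga11 at 0.73. Of 10 measured genes of TGF-beta signalling, a main inducer of collagen genes in fibroblasts, 7 were higher and 3 lower, with a median of 0.07 and 0 past the threshold. Tgfb1 was at -1.39 (exact permutation p = 0.114) and Ccn2, a classic target, at -0.73.

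Markers of the cell types that a whole muscle holds were read in the same arrays. The 9 fibroblast markers had mean deviations of 0.02, 0.02, 0.26 and -0.62 SD in the AAM arrays and -0.60, -0.80, 0.32 and 1.40 SD in the WPH arrays. The 9 fibrillar collagens above the array median had -0.26, -0.18, 0.48 and -0.63 SD, and -0.46, -0.75, 0.33 and 1.47 SD. Both sets were highest in WPH replicate 4 and lowest in WPH replicate 2. Fibroblast markers were higher after WPH in 5 genes and lower in 4; Dcn and Lum are also among the interstitial partners and Fap among the breakdown genes counted above. In whole muscle, fewer cells of a type and less RNA per cell cannot be told apart.

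Endothelium markers, 7 of 8 measured, had -0.02, -1.01, 0.66 and -0.18 SD in the AAM arrays and -0.04, -0.14, 0.82 and -0.08 SD in the WPH arrays. They were thus highest in WPH replicate 3 and AAM replicate 3, the arrays highest for Col4a1 and Col4a2, and near their mean in WPH replicate 4. The 7 smooth muscle and pericyte markers were highest in the same arrays, at 0.88 SD in WPH replicate 3 and 0.57 SD in AAM replicate 3. Macrophage markers ranged from -0.74 to 1.0 SD after AAM and from -0.97 to 0.85 SD after WPH, and Schwann cell markers from -0.55 to 1.31 SD and from -0.75 to 0.49 SD.

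Fibre type markers also differed between rats. The 7 slow fibre markers, with a median r of 0.97 among themselves, had -0.09, -0.52, 0.28 and 1.09 SD in the AAM arrays and 0.93, 0.89, -1.30 and -1.28 SD in the WPH arrays. They were low in WPH replicates 3 and 4, in which type VI chains were high, and high in AAM replicate 4 and WPH replicates 1 and 2, in which these were low. In AAM replicates 1 to 3, both had the same sign, with type VI chains above the array median at -0.45, -0.68 and 0.73 SD. The 10 fast fibre markers were highest in WPH replicate 4, at 1.23 SD, and ranged from -0.68 to 0.37 SD in the other arrays. Tendon markers had mean deviations of -1.76, 0.41, 0.65 and -0.32 SD in the AAM arrays and -0.08, -0.58, 0.48 and 1.19 SD in the WPH arrays. Their 3 highest arrays, WPH replicates 3 and 4 and AAM replicate 3, were also those of the fibrillar and type VI class means, and their lowest was AAM replicate 1. The part of fibroblast, tendon, endothelium and fibre type markers in the collagen values was not tested.

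**Figure D4:**
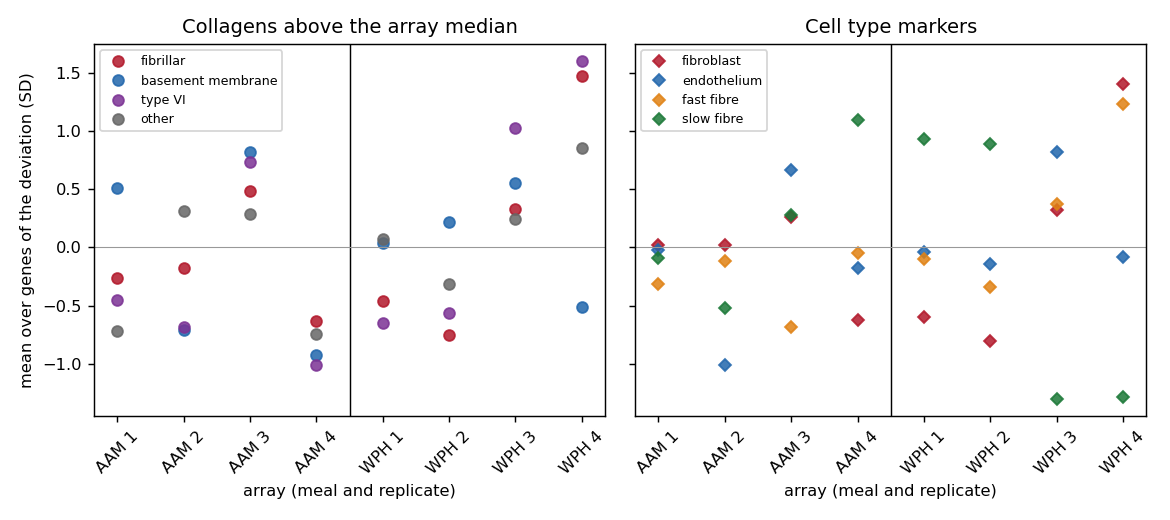
Mean deviation in each array, in SD, over the collagens above the array median by class (left) and over cell type marker lists (right), with AAM and WPH arrays parted by a vertical line. Fibrillar and type VI collagens and fibroblast markers are highest in WPH 4 (1.47, 1.60 and 1.40 SD), basement membrane collagens in AAM 3 (0.82 SD), and slow fibre markers are lowest in WPH 3 and WPH 4 (-1.30 and -1.28 SD).

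As class means over the genes above the array median, type VI collagens stood at 0.35 ± 1.13 SD after WPH and -0.35 ± 0.76 SD after AAM, and fibrillar collagens at 0.15 ± 0.99 and -0.15 ± 0.46 SD (SD, n = 4 each). Basement membrane collagens stood at 0.07 ± 0.44 and -0.07 ± 0.87 SD, and other collagens at 0.21 ± 0.48 and -0.21 ± 0.59 SD. In each class the difference between meals was smaller than the spread between rats of one meal.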

How the data were processed

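Total RNA of 8 epitrochlearis muscles was hybridised to Affymetrix 3' arrays, 1 per rat, from 100 ng of RNA per the labels' protocols. The values were the authors' deposited log2-like levels per probe set. The submitters' processing notes name R 2.7.2. How background, normalization and summary were handled is not stated in the sources used here, so scale and centring stay unknown. Groups and replicate numbers came from the labels, which call the samples biological replicates. The replicate numbers did not pair the samples.

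From 31099 probe sets, 57 controls were left out. Genes were named from the platform annotation; 20826 probe sets had 1 symbol, 436 several and 9780 none. WPH was compared with AAM with the R package limma 3.58.1 (R 4.3.3, lmFit, then eBayes with a prior df of 0.549, two-sided), and p-values were adjusted by Benjamini-Hochberg over 31042 probe sets and a threshold of 0.05. Intervals of the standardized difference came from the noncentral t distribution. Exact permutation tests over 35 splits of the arrays have a smallest possible p of 0.0286. Correlations used all 40320 pairings. The number of arrays limits the precision. Tested on simulated data over the 31042 probe sets of WPH against AAM, limma recovered 8 of 67 shifts of 3 SD, 55 of 67 of 6 SD and 66 of 66 of 12 SD, with 9 false calls.

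The members and lists were chosen with earlier results of these data known. Values in every array are given for 14 main chains of muscle matrix and the 3 other members of largest SD; of each list, the 2 members of smallest unadjusted p are given. Alternatives were quantile normalization, median centring, a filter keeping the brighter 50% of probe sets, a replicate block, leaving out each array, a trended robust prior, a fourth-root scale (constant 0.01), the mean over a gene's probe sets and, chosen after seeing the data, leaving out AAM replicate 3 with WPH replicate 4.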

Additional observations from a re-analysis of the deposited data

Results flagged for a closer look

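Col1a1, a chain of type I collagen, stood apart in 1 array of the AAM group in the probe set used. AAM replicate 3 was at 1.07 SD above the gene's mean, and the other 3 AAM arrays lay between -0.51 and -0.39 SD. Its gap to the nearest array was 0.924 of the group's whole range, above Dixon's 95% critical value for 4 arrays. Among 34 such groups of named collagens, this was the only one past the value, and chance alone passes about 1 group in 20. The same array was the highest AAM array for Col1a2, Col3a1, Col4a1, Col4a2 and the 3 main type VI chains. In the further probe set of Col1a1 it was also the highest AAM array, at 0.85 SD, but stood less apart. The other AAM arrays lay between -0.48 and 0.07 SD there.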

How the results depend on the processing

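In all 15 other fits, 0 probe sets passed the threshold. The count of collagen genes higher after WPH, 30 of 41, was 15 after median centring and 17 to 31 when single arrays were left out, lowest without WPH replicate 4. Leaving out AAM replicate 3 together with WPH replicate 4 gave 28. The arrays' medians span 6.67e-05, more than most probe sets vary, so median centring shifts nearly all genes: it left 11.2% of all genes higher. Quantile normalization, after which 6 collagens no longer varied, gave 24 of 35. With the replicate number as a block, 0 probe sets passed and 30 of 41 collagens were higher, but deviations of same-numbered arrays correlated by only 0.16, 0.13, 0.06 and -0.07.

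Among the 17 named collagens, the direction turned under quantile normalization for Col1a1 (-0.71), Col4a1 (-0.36), Col4a2 (-1.22) and Col12a1 (-0.68). Under median centring it turned for Col3a1 (-0.40) and Col4a2 (-0.11). Without AAM replicate 3 and WPH replicate 4 together, it turned for Col1a2 (0.00 after rounding) and Col5a1 (-0.05). Directions of the remaining collagens are not listed, and the fall from 30 to 15 of 41 shows that more of them turned under median centring. Leaving out single arrays gave ranges of -0.39 to 0.71 for Col1a1, -0.34 to 0.86 for Col1a2, -0.02 to 1.15 for Col3a1, -0.37 to 0.88 for Col5a1, -0.17 to 0.83 for Col5a2, -0.30 to 0.76 for Col4a1, -0.42 to 0.69 for Col4a2, -0.22 to 0.73 for Col6a3, -0.09 to 0.98 for Col14a1, -0.12 to 1.17 for Col15a1, -0.08 to 1.06 for Col18a1 and -0.03 to 0.93 for Col6a6. None of these differences passed the threshold in any fit.

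With single arrays left out, class medians of the standardized difference ranged from -0.10 to 0.83 (fibrillar), 0.01 to 0.76 (basement membrane), -0.03 to 0.93 (type VI) and -0.10 to 0.26 (other). Without the 2 farthest arrays, r no longer passed for Col1a1 with Col1a2 (0.95), Col5a1 with Col5a2 (0.85), Col6a1 with Col6a2 (0.85), Col6a1 with Col6a3 (0.89) and Col6a2 with Col6a3 (0.81). As deviations from the group means it did not pass for Col6a1 with Col6a2 (0.92) and Col6a2 with Col6a3 (0.87). The cause was not tested.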
